A study of Mus musculus with 15 samples.

Results

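The regions described here are stretches of open chromatin that lay in gene deserts, more than 100 kb outside every protein-coding gene, in mouse CD4+ T cells. The peak lists of 15 ATAC-seq libraries were merged wherever peaks shared at least 1 bp, which gave 111393 merged regions, and the 83743 regions found in at least 2 libraries were kept. Of these, 5417 regions (6.47%) were more than 100 kb beyond the bounds of every protein-coding gene in the mm10 annotation, and they are called desert regions below; the other 78326 regions serve as the comparison. Among the kept regions distance was the only criterion, and the other regions passed the same minimum of 2 libraries. Peaks of a single group could meet that minimum, and the activated libraries were more numerous and listed more peaks. Of the 1429 desert regions called gained below, 1269 had no peak in any untreated library. Such regions entered through activated libraries alone, so the shares called at 72 h and 0 h are not independent of this choice.

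The libraries came from CD4+ T cells of mice without the transcription factor IRF5 and of wild-type mice, either activated for 72 h or untreated. The groups were IRF5-/- cells at 72 h (n = 4 libraries), IRF5+/+ cells at 72 h (n = 4), IRF5-/- cells at 0 h (n = 3) and IRF5+/+ cells at 0 h (n = 4). The activating agent, the promoter or method behind the IRF5 deletion and the ages of the mice were not given in the sources used here. The sources do not say if replicates were different mice or cultures, and the p-values therefore rest on the spread between libraries alone, which may be technical. No untreated culture at 72 h was among the libraries, so activation and time in culture cannot be told apart.

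ATAC-seq uses a transposase that inserts sequencing adapters where DNA is not wrapped in nucleosomes, and the fragments that pile up mark accessible elements such as promoters and enhancers. Gene deserts are long stretches without protein-coding genes, and several are known to hold enhancers that contact a flanking gene across a great distance. The desert beyond Myc, which encodes a growth-driving transcription factor, is a well-studied case in blood cells. On activation through the antigen receptor, CD4+ T cells leave quiescence, divide and differentiate into helper cells, and their enhancer repertoire is remodelled by factors such as AP-1, NFAT and NF-kB. IRF5 belongs to the interferon regulatory factors and is best known for driving inflammatory cytokine genes in macrophages and B cells.

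The libraries held between 20531236 and 29000534 fragments after filtering, and between 29994 and 69086 peaks. The lowest peak number belonged to replicate 3 of the untreated IRF5-/- cells, which stood apart from the other libraries in most measures below. Peaks in the Irf5 gene (chromosome 6, 29526130 to 29541869) were present in 7 of 7 IRF5-/- libraries and 8 of 8 IRF5+/+ libraries, but the deleted part of the gene was not given, so this did not check the genotype labels. All 8 CD4+ T cell marker genes had peaks in every library, while the B cell gene Ms4a1, the myeloid gene Lyz2 and the natural killer cell genes Ncr1 and Klrb1c had no region. The markers Cd79a, Pax5, Itgam, Spi1 and Cd8b1, which belong to other cell types, had peaks in every library. The CD8 T cell marker Cd8a had a peak in 1 of 4 IRF5-/- and 0 of 4 IRF5+/+ libraries at 72 h, against 2 of 3 IRF5-/- and 4 of 4 IRF5+/+ libraries at 0 h, and its part in the changes with activation was not tested.

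No genome sequence was at hand, so sequences could be shown only for desert regions that covered a promoter window in the RefSeq table (assembly GRCm38.p6, from 250 bases before to 50 bases after a gene start). Such windows overlapped desert regions in 136 cases, and they belonged to 119 genes, all of them lncRNA genes. The 6 windows below lay wholly inside a desert region. Windows on a single chromosome were left out before the choice. Among the windows that remained, these 6 had the highest median pileup of their kind. They show the sequence content of elements that gained, lost or kept a peak on activation. Gm38326 (chr3:60788111-60788410, plus strand) and Gm33323 (chr7:129764377-129764676, plus strand) lay in regions gained at 72 h. Gm32126 (chr16:24159510-24159809, minus strand) and Gm29854 (chr16:7767641-7767940, plus strand) lay in regions lost at 72 h. Gm26901 (chr1:7398047-7398346, minus strand) and Gm41331 (chr15:60141576-60141875, plus strand) lay in regions with a peak in all 15 libraries. Capitals mark matches to short motifs on either strand: TGANTCA for AP-1, CCGGAAGT for ETS, TGTGGTTT for RUNX, CTTTGAA for TCF/LEF, GAAA repeated after any 2 bases for IRF factors, and CC, any 3 bases, AG, any 2 bases and GGC for CTCF, where N is any base.
Gm38326: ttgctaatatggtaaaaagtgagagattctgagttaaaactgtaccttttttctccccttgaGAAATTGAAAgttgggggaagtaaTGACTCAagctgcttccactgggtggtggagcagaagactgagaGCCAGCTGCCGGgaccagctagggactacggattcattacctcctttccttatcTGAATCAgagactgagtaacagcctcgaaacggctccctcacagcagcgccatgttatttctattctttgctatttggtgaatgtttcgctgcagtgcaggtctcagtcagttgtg
Gm33323: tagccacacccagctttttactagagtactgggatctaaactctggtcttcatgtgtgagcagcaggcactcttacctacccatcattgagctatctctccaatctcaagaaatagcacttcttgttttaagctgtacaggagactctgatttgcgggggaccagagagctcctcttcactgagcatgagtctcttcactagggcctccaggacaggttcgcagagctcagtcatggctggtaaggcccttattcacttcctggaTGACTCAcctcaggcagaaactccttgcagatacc
Gm32126: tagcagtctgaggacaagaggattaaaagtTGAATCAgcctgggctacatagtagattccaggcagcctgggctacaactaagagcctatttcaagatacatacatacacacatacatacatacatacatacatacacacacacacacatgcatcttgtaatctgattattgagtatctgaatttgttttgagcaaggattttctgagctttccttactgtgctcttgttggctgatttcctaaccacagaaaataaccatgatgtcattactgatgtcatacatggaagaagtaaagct
Gm29854: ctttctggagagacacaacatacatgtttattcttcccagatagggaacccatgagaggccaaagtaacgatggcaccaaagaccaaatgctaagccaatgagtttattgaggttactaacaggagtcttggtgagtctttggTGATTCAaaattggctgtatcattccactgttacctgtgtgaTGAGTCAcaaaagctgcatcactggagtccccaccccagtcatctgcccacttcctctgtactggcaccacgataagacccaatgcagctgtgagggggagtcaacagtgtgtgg
Gm26901: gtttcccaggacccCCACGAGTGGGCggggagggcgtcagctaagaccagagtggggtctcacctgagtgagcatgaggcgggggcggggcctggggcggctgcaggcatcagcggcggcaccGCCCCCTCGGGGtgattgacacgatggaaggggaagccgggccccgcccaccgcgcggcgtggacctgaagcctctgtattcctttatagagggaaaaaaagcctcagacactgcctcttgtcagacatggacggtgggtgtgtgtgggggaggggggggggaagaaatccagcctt
Gm41331: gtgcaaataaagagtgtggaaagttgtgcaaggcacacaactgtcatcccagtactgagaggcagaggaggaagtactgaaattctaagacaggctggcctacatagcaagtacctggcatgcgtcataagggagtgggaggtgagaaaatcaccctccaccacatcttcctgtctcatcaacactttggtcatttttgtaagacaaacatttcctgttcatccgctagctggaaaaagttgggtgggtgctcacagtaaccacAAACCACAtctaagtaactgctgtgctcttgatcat

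The AP-1 motif occurred in 23 of the 136 promoter windows that overlapped desert regions (16.9%), against 7.81% of all 32851 windows in the table. The RUNX motif occurred in 6 windows (4.41%), against 1.78% of all windows, and the TCF/LEF motif in 12 windows (8.82%), against 5.14%. The ETS motif was found in 3 windows (2.21%; 3.89% of all), the IRF motif in 3 windows (2.21%; 3.44% of all) and the CTCF motif in 7 windows (5.15%; 8.61% of all). These shares are descriptions of the letters in the windows, and they do not show binding of a factor. The 136 windows all belonged to lncRNA genes and overlapped a called region, while the 32851 were chosen for neither. The parts of gene type, accessibility and base composition in these shares were not tested. Of the printed windows, Gm38326 held 2 AP-1 matches, 1 IRF match and 1 CTCF match, Gm29854 held 2 AP-1 matches, and Gm26901, with a GC content of 65.7%, held 2 CTCF matches. Pileup here means the highest number of fragments covering a peak within the region, as deposited by the authors, scaled to 1000000 fragments after filtering in each library. The region around Gm38326, between Mbnl1 and P2ry1, had scaled pileups of 2.14, 1.33, 1.88 and 1.45 in IRF5-/- cells at 72 h and 2.43, 2.61, 2.57 and 2.18 in IRF5+/+ cells at 72 h, with no peak in any untreated library. The region around Gm32126, between Bcl6 and Lpp, showed the opposite order, with no peak in any activated library, 1.41, 0.727 and 1.12 in untreated IRF5-/- cells, and 1.83, 1.86, 2.14 and 1.5 in untreated IRF5+/+ cells. Bcl6 encodes the repressor that specifies follicular helper T cells.

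A region without a listed peak in a library is given as having no peak: it was not shown to be closed there. In these bulk libraries, a region open in few cells cannot be told apart from one weakly open in many.

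Desert regions were narrower than the rest, with a median width of 553 bp against 659 bp for the other regions. Their median distance to the nearest protein-coding gene was 185.4 kb, 517 lay beyond 500 kb, 98 beyond 1 Mb, and the farthest was 1961.7 kb away. At the threshold itself, the nearest desert region was 100001 bp from a gene and the farthest region left out was 99971 bp away. Only 601 desert regions (11.1%) had a peak in all 15 libraries, against 26.3% of the other regions and 25.3% of all regions. At the other end, 27.1% of desert regions were found in just 2 or 3 libraries, against 18.4% of the others. Desert regions thus had peaks in fewer libraries than regions near genes.

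Peaks in deserts were more frequent in activated than in untreated cells in both genotypes. A mean of 58.2% ± 5.24 of the desert regions had a peak in IRF5-/- libraries at 72 h (SD, n = 4, range 50.7 to 62.6%), against 27.7% ± 8.26 at 0 h (n = 3, 18.3 to 33.7%). In IRF5+/+ cells the shares were 64.4% ± 4.95 at 72 h (n = 4, 57.9 to 69.7%), against 33.9% ± 3.44 at 0 h (n = 4, 29.1 to 37%). The activated and untreated libraries did not overlap in either genotype, while the IRF5-/- and IRF5+/+ libraries overlapped at both times. Other regions showed the same order with a smaller contrast, at 65.2% for IRF5-/- at 72 h, 72.4% for IRF5+/+ at 72 h, 44.9% for IRF5-/- at 0 h and 53.1% for IRF5+/+ at 0 h. Deserts therefore held a larger share of all called regions after activation: 5.8% ± 0.297 at 72 h against 4.03% ± 0.413 at 0 h in IRF5-/- cells, and 5.79% ± 0.185 against 4.21% ± 0.134 in IRF5+/+ cells. These shares did not overlap between the times in either genotype.

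The mean height of the peaks went the other way. In the 601 desert regions called in every library, the median scaled pileup was 1.7 ± 0.165 in IRF5-/- cells at 72 h against 2.16 ± 0.88 at 0 h, and 1.95 ± 0.243 in IRF5+/+ cells at 72 h against 2.88 ± 0.295 at 0 h (SD, n = 4, 3, 4 and 4). The untreated IRF5-/- mean included replicate 3, whose median of 1.15 was the lowest of all libraries. In the other regions it was 2.27 at 72 h against 3.37 at 0 h in IRF5-/- cells, and 2.71 at 72 h against 4.63 at 0 h in IRF5+/+ cells, so desert peaks were lower than peaks near genes in each group. The libraries of the 2 times did not overlap in IRF5+/+ cells (at most 2.22 at 72 h, at least 2.45 at 0 h) and overlapped in IRF5-/- cells.

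**Figure D1:**
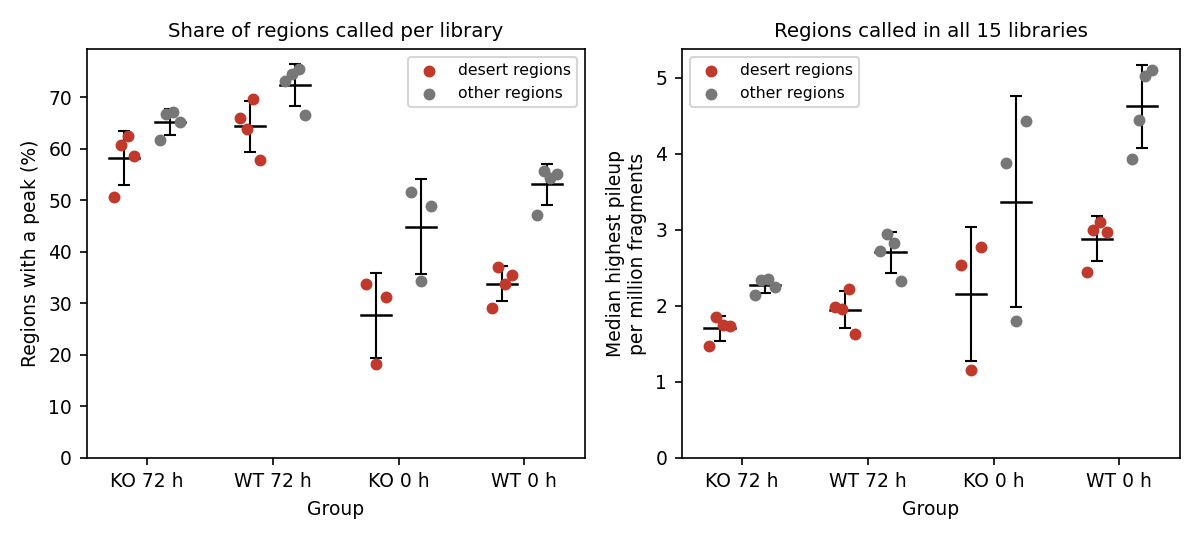
Left, the percent of desert regions and of other regions with a peak in each library, by group; right, the median scaled pileup of the regions called in all 15 libraries. KO is IRF5-/- and WT is IRF5+/+, points are libraries and bars are means ± SD; the share of desert regions reached 50.7 to 62.6% in IRF5-/- cells at 72 h, against 18.3 to 33.7% at 0 h.

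To ask which desert regions gained or lost a peak on activation, the number of libraries with a peak was compared between 72 h and 0 h for each region by an exact test that kept the genotypes as strata. Its p-values were adjusted by the Benjamini-Hochberg method over all 83743 regions. By this test 1429 desert regions (26.4%) were gained, that is, called in more libraries at 72 h with an adjusted p under 0.05, against 18.4% of all regions. A further 303 desert regions (5.59%) were lost, against 4.65% of all regions, and 3685 passed in neither direction. Since a region called in every library cannot change, the shares were also taken over the regions not in all 15 libraries: 29.7% of those in deserts were gained against 24.6% of all such regions, and 6.29% against 6.23% were lost. Of the gained desert regions 1269 had no peak in any untreated library, and of the lost ones 229 had none in any activated library.

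The balance of gains and losses depended on the number of peaks listed for each library. When each library was held to its 29994 strongest peaks, 589 of 2225 desert regions were gained (26.5%; 14.8% of all regions) and 368 were lost (16.5%; 14.1% of all regions). Without replicate 3 of the untreated IRF5-/- cells, the counts were 1210 gained and 295 lost. Gains outnumbered losses in deserts in each of these settings, by a narrower margin with equal peak numbers.

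Each genotype was also looked at alone. In IRF5-/- cells 993 desert regions (18.3%) had a peak in all 4 libraries at 72 h and in none at 0 h. Of all regions 12.9% did so. In IRF5+/+ cells 1148 desert regions did so (21.2%, against 14.3% of all regions). In both genotypes together 742 desert regions met this criterion (13.7%, against 8.86% of all regions). This was 74.7% of the IRF5-/- set and 64.6% of the IRF5+/+ set. Over all regions 7420 met it in both genotypes, of 10791 in IRF5-/- cells and 11981 in IRF5+/+ cells. Sharing between the genotypes was thus not particular to deserts. The reverse pattern, no peak at 72 h and a peak in every library at 0 h, was seen less often. It held for 144 desert regions in IRF5-/- cells (2.66%, against 2.23% of all regions) and 233 in IRF5+/+ cells (4.3%, against 3.35% of all regions). It held in both for 94 (1.74%, against 1.37% of all regions), or 65.3% of the IRF5-/- set and 40.3% of the IRF5+/+ set. Over all regions it held in both for 1144, of 1868 in IRF5-/- cells and 2805 in IRF5+/+ cells. The genotypes had 3 and 4 untreated libraries, which makes these criteria unequal in strictness.

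Among the gained regions with the highest pileup, the tallest stood between Tet2, a dioxygenase that oxidises 5-methylcytosine, and Cxxc4, at position 133757875 to 133758976 of chromosome 3, 212.7 kb from Tet2. It reached 5.87, 6.74, 7.34 and 5.33 in IRF5-/- cells at 72 h and 7.7, 8.67, 9.26 and 7.43 in IRF5+/+ cells at 72 h. At 0 h it had no peak in any IRF5-/- library and 1 peak, of 0.594, in IRF5+/+ cells (adjusted p = 0.0121, exact test). Every activated library was thus far above the single untreated value. A second region lay 268.7 kb from Tank, an adaptor of TRAF signalling, on chromosome 2 (61308896 to 61309886). Its pileup was 5.61, 3.67, 5.29 and 4.26 in IRF5-/- cells and 6.16, 7.33, 6.58 and 5.72 in IRF5+/+ cells at 72 h, with no peak at 0 h (adjusted p = 0.00399, exact test). The design allowed no exact p below 0.000408, and 0.00399 was its adjusted value in this test.

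A region 132.5 kb from Itga4, which encodes the alpha 4 integrin used by T cells to enter tissue, lay inside the lncRNA gene Gm35748 on chromosome 2 (79122431 to 79122928). It had 4.76, 4.8, 5.34 and 4.4 in IRF5-/- cells and 5.63, 6.93, 6.89 and 4.9 in IRF5+/+ cells at 72 h, and no peak at 0 h. Between Dusp10, a phosphatase of the JNK and p38 kinases, and the homeobox gene Hlx, a region on chromosome 1 (184533996 to 184535225) had 4.23, 3.83, 5.76 and 3.79 in IRF5-/- cells and 5.63, 5.48, 5.51 and 4.7 in IRF5+/+ cells at 72 h, and a single untreated peak of 0.414 in IRF5+/+ cells. The remaining pair stood between Pcdh15 and Rsph14 (chromosome 10, 74822996 to 74824243) and between Hs3st4 and 4930571K23Rik (chromosome 7, 124930413 to 124931431). Both had a peak in 8 of 8 activated libraries, from 4.08 to 6.89, and in no untreated library. In the regions near Tet2, Tank and Rsph14 all 4 IRF5-/- libraries at 72 h were below all 4 IRF5+/+ libraries, and in the other 3 the genotypes overlapped. These differences in height were not tested, because the fit of pileup was limited to regions with a peak in every library.

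The lost regions with the highest pileup included 3 beside Tgfbr2 and Tnfaip3. Between Tgfbr2, the receptor subunit that binds TGF-beta, and Rbms3, a region on chromosome 9 (116368885 to 116369652, 193.5 kb from Tgfbr2) reached 8.83, 3.67 and 8.77 in untreated IRF5-/- cells and 8.08, 8.17, 10.4 and 10.2 in untreated IRF5+/+ cells. At 72 h it had a peak of 0.565 in 1 IRF5-/- library and of 0.527 in 1 IRF5+/+ library, and none in the others (adjusted p = 0.0443, exact test). The desert between Tnfaip3, whose product A20 restrains NF-kB signalling, and Olig3 on chromosome 10 held a pair of such regions in the lncRNA gene Gm20139. The first (19171511 to 19172516, 156.1 kb from Tnfaip3) had no peak at 72 h in either genotype, 5.86, 2.26 and 6.33 in untreated IRF5-/- cells and 6.2, 5.79, 6.59 and 6.33 in untreated IRF5+/+ cells. The second (19192368 to 19192853) had none at 72 h, 5.65, 2.79 and 5.89 in untreated IRF5-/- cells and 4.6, 6.79, 6.27 and 6.29 in untreated IRF5+/+ cells (adjusted p = 0.00399 for each, exact test). In all 3 regions the lowest untreated value was that of IRF5-/- replicate 3.

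Another lost region stood 251.6 kb from Trps1, a GATA-type zinc finger repressor, on chromosome 15 (50402280 to 50403113; adjusted p = 0.0443, exact test). It had 1 peak at 72 h in each genotype, of 0.646 in IRF5-/- cells and 0.689 in IRF5+/+ cells, against 2.45 to 6.77 in untreated IRF5-/- cells and 4.93 to 7.2 in untreated IRF5+/+ cells. The regions between Tbc1d1 and Gm38457 (chromosome 5, 64496691 to 64497383) and between Ankrd1 and Pcgf5, a Polycomb subunit (chromosome 19, 36242138 to 36243228), each had 1 activated peak, of 0.365 and 0.484, against 1.91 or more in all 7 untreated libraries (adjusted p = 0.0121 for each, exact test). The calls near Tgfbr2 and Trps1, which had a peak in both genotypes at 72 h, did not hold without each of 13 of the 15 libraries, left out in turn.

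**Figure D2:**
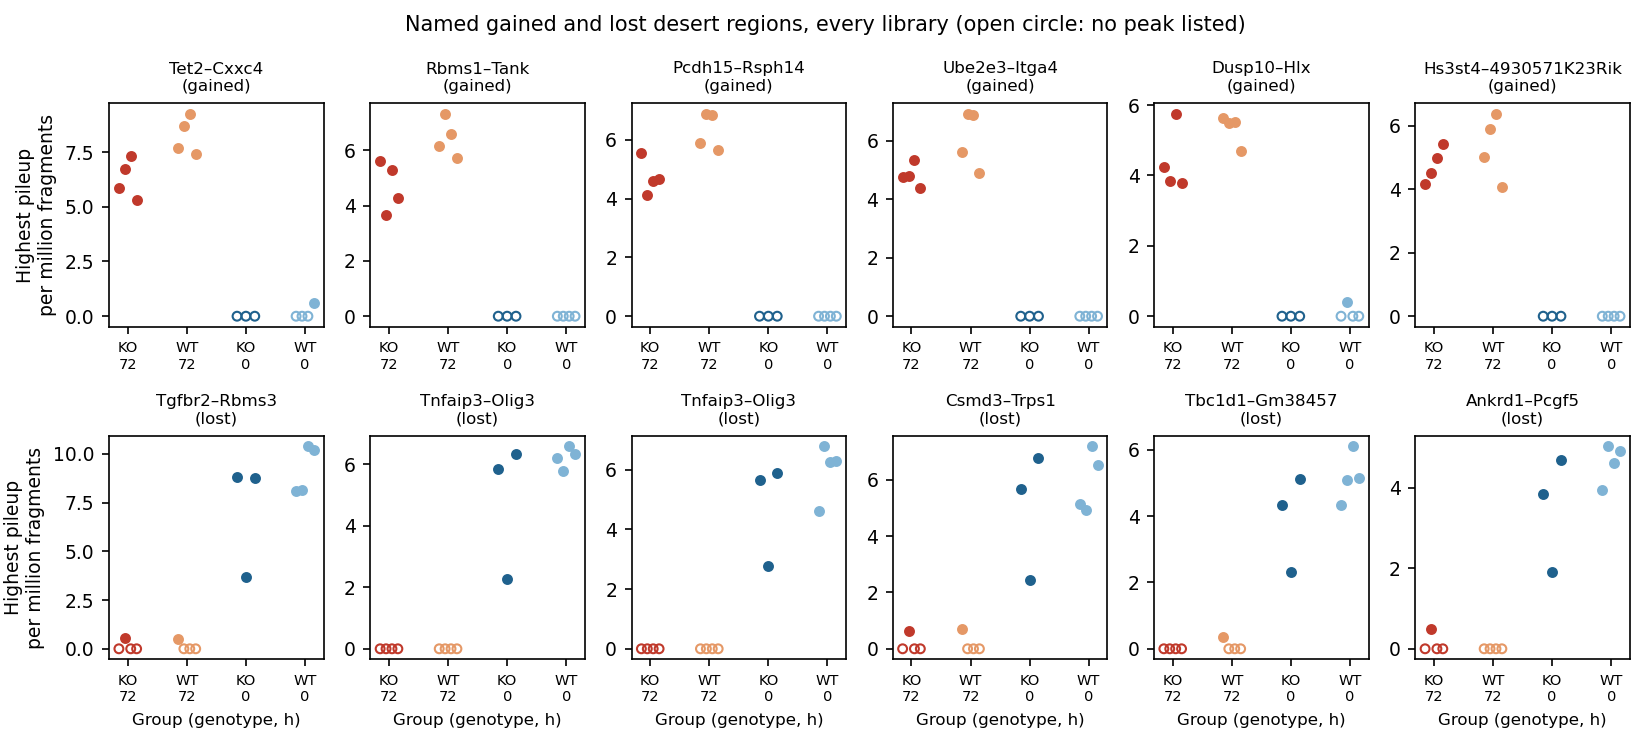
Scaled pileup in every library for the 6 gained and 6 lost desert regions with the highest pileup, named by the flanking protein-coding genes; KO is IRF5-/-, WT is IRF5+/+, and open circles mark libraries with no listed peak. Gained regions reach 3.67 to 9.26 at 72 h, and lost regions 1.91 to 10.4 at 0 h.

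Gained and lost desert regions had similar shapes but different surroundings. The gained regions had a median width of 650 bp and a median distance to a gene of 190.7 kb, the lost regions 662 bp and 180 kb, while the regions in all 15 libraries were wider (1022 bp) and nearer (169.7 kb). Annotated lncRNA genes overlapped 20.1% of the gained, 31.7% of the lost and 33.4% of the regions in all 15 libraries. The remaining 3084 desert regions (56.9%) were the narrowest, with a median width of 433 bp, and 22.3% of them overlapped lncRNA genes.

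The share of gained regions was similar at all distances up to 1000 kb, while the share of constant regions was smaller farther out. Between 100 and 200 kb from a gene there were 3005 desert regions, of which 25.1% were gained, 5.96% lost and 12.8% called in all 15 libraries. From 200 to 500 kb the shares of 1895 regions were 28.4, 5.44 and 9.76%, and from 500 to 1000 kb the shares of 419 regions were 28.4, 5.01 and 5.25%. Beyond 1000 kb, 18 of 98 regions were gained (18.4%), 10.2% were in all 15 libraries, and 0 were lost. The share of regions with a peak at 72 h changed little along these bands, from 54.7 to 59% in IRF5-/- cells and from 59.2 to 65.4% in IRF5+/+ cells. At 0 h it was 31.4% in IRF5-/- cells and 38.3% in IRF5+/+ cells in the nearest band; between 500 and 1000 kb it was 18.4% in IRF5-/- cells and 22.3% in IRF5+/+ cells. No test was run on these shares.

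Desert regions were packed into clusters. Joining neighbours at most 20 kb apart gave 536 clusters of at least 3 regions, which held 2917 desert regions (53.8%), and 60 clusters of at least 10, while 1590 regions stood alone. Solitary regions were gained in 29.7% of cases and lost in 1.7%, and 4.65% of them had a peak in all 15 libraries. In clusters of 10 or more, which held 862 regions, 17.3% were gained, 12.4% lost and 20.9% called in all 15. The share with a peak at 0 h was 13.9% in IRF5-/- cells and 17.7% in IRF5+/+ cells among solitary regions, against 49.5% in IRF5-/- cells and 57% in IRF5+/+ cells in the large clusters. At 72 h the share hardly moved with cluster size, from 57.6 to 58.7% in IRF5-/- cells and from 61.8 to 66.1% in IRF5+/+ cells. Regions in dense clusters thus had peaks in untreated cells more often than solitary ones, while the shares in activated cells were close; these shares were not tested.

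The 5 most crowded clusters held between 23 and 36 regions. The desert next to Bcl2l11, which encodes the death-inducing protein BIM, held 36 regions within 192.9 kb, and the lncRNA gene Morrbid, known in mouse myeloid cells for repressing Bcl2l11, overlapped 24 desert regions. The desert between Klf14 and Mkln1 held 31 regions within 186.7 kb, of which the lncRNA gene Lncpint overlapped 20. Clusters of 26 regions within 158.8 kb beside Satb1, of 23 within 128.5 kb beside Cxcr4, the receptor for the chemokine CXCL12, and of 23 within 151.6 kb beside Id2, an inhibitor of E proteins, followed.

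Whole deserts differed in how their regions moved. The genome held 1689 stretches of more than 200 kb between protein-coding genes, of which 875 contained a desert region and 814 none; 78 of the 296 that exceeded 1 Mb had none. Of all desert regions, 50% lay in 107 of these deserts. The density in the part of the genome that could hold a desert region was 6.87 per Mb, against 41.1 per Mb for other regions elsewhere. Chromosome 13 was the densest, with 507 desert regions and 15 per Mb, and the X chromosome held 142 at 2.44 per Mb. Among the 167 deserts with at least 10 regions, 93 held both gains and losses, 72 held gains and no losses, 0 held losses and no gains, and 2 held neither. Losses outnumbered gains in 23 and equalled them in 11. Over all desert regions 26.4% were gained and 5.59% lost, so more gains than losses would be common in any desert. Differences between deserts were not tested.

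Of the 15 deserts with the most regions, the Celf2 to Gata3 desert on chromosome 2 had the highest number of gains: 20 of 56 regions were gained (35.7%), 0 lost and 12 present in all 15 libraries. Some smaller deserts, such as that beside Kif2a with 13 of 25, had a higher share of gains. Gata3 encodes the transcription factor that directs T cell development and the T helper 2 programme. Peaks were called in 34, 42, 45 and 38 of the 56 regions in IRF5-/- cells at 72 h and in 43, 44, 44 and 42 in IRF5+/+ cells at 72 h, against 20, 13 and 17 in IRF5-/- cells and 21, 26, 24 and 22 in IRF5+/+ cells at 0 h. No activated library overlapped an untreated one. The gained regions lay between 105.5 and 991.2 kb from Gata3, with a median of 529.3 kb, while the constant ones had a median distance of 188.5 kb. Within the same desert the height of the 12 constant regions moved both ways, since after centring 4 were higher and 7 lower in IRF5-/- cells, and 4 higher and 8 lower in IRF5+/+ cells (limma, adjusted p under 0.05).

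The desert beside Cblb, a ubiquitin ligase that limits T cell activation, held 56 regions of which 17 were gained (30.4%) and 0 lost. They were called in 31, 33, 35 and 35 cases in IRF5-/- cells at 72 h and 41, 37, 44 and 37 in IRF5+/+ cells at 72 h, against 15, 8 and 13 in IRF5-/- cells and 13, 16, 13 and 14 in IRF5+/+ cells at 0 h. Its gained regions reached from 120.8 to 1242 kb from Cblb, with a median of 568 kb. The deserts on both sides of Klf6, a zinc finger factor induced early after stimulation, held 52 regions together, of which 27 were gained and 1 was lost. They had 33, 38, 39 and 37 peaks in IRF5-/- cells and 40, 40, 44 and 40 in IRF5+/+ cells at 72 h, against 9, 3 and 8 in IRF5-/- cells and 9, 9, 9 and 10 in IRF5+/+ cells at 0 h. In both deserts the activated and untreated libraries were far apart. The gained shares beside Cblb and Zeb2 (15 gained, or 31.2%, and 2 lost of 48) were near the 26.4% of all desert regions. Higher shares were gained beside Dusp6, a phosphatase of ERK (12 gained, 2 lost of 28), and Kif2a (13 gained, 0 lost of 25). The same held beside Rasgrp1, an activator of Ras below the T cell receptor (13 gained, 1 lost of 24).

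The Satb1 to Kcnh8 desert showed the reverse order. Satb1 encodes a chromatin organiser that maintains thymocyte and naive T cell programmes, and 13 of the 57 regions in this desert were lost, 5 gained and 12 constant. Peaks were called in 23, 24, 27 and 28 of them in IRF5-/- cells and 27, 27, 27 and 29 in IRF5+/+ cells at 72 h, against 38, 28 and 36 in IRF5-/- cells and 33, 39, 39 and 40 in IRF5+/+ cells at 0 h. The lost regions lay between 112.2 and 615.1 kb from Satb1, with a median of 344.3 kb, interspersed with the gained ones at 184.5 to 618.8 kb. Losses also led beside Tox, a regulator of CD4+ lineage development (8 lost, 3 gained of 38), and between Eea1 and Btg1, an antiproliferative gene of quiescent lymphocytes (8 lost, 5 gained of 43), and, by a smaller margin, beside Sox4 (7 lost, 5 gained of 39) and between Trib2 and Lpin1 (7 lost, 5 gained of 38). Beside Foxo1, a factor that maintains naive T cells, gains and losses were equal at 4 each among 44 regions, and 14 regions were constant.

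The largest desert by members was Myc to Gsdmc on chromosome 15, with 69 regions, of which 13 were gained (18.8%), 5 lost and 8 constant. They were called in 32, 36, 35 and 39 cases in IRF5-/- cells and 47, 48, 53 and 42 in IRF5+/+ cells at 72 h, against 26, 15 and 26 in IRF5-/- cells and 20, 34, 25 and 29 in IRF5+/+ cells at 0 h. At 72 h all 4 IRF5-/- libraries were below all 4 IRF5+/+ libraries, and at 0 h the genotypes overlapped. The share of all desert regions with a peak was also lower in IRF5-/- cells on average, and the difference in this desert was not tested. The lncRNA gene Pvt1 in this desert overlapped 19 desert regions. Counting both sides of Myc, 99 regions were present, 20 of them gained and 10 lost. Next to Id2, 10 of 57 regions were gained (17.5%) and 5 lost. The gained shares beside Myc and Id2 were below the 26.4% of all desert regions. The desert between Adam6a and Zfp386, which spans most of the immunoglobulin heavy chain locus, held 61 regions, 10 of them gained and 3 lost, with 27, 35, 43 and 34 called in IRF5-/- cells and 34, 41, 38 and 34 in IRF5+/+ cells at 72 h, against 23, 17 and 23 in IRF5-/- cells and 18, 21, 24 and 21 in IRF5+/+ cells at 0 h.

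**Figure D3:**
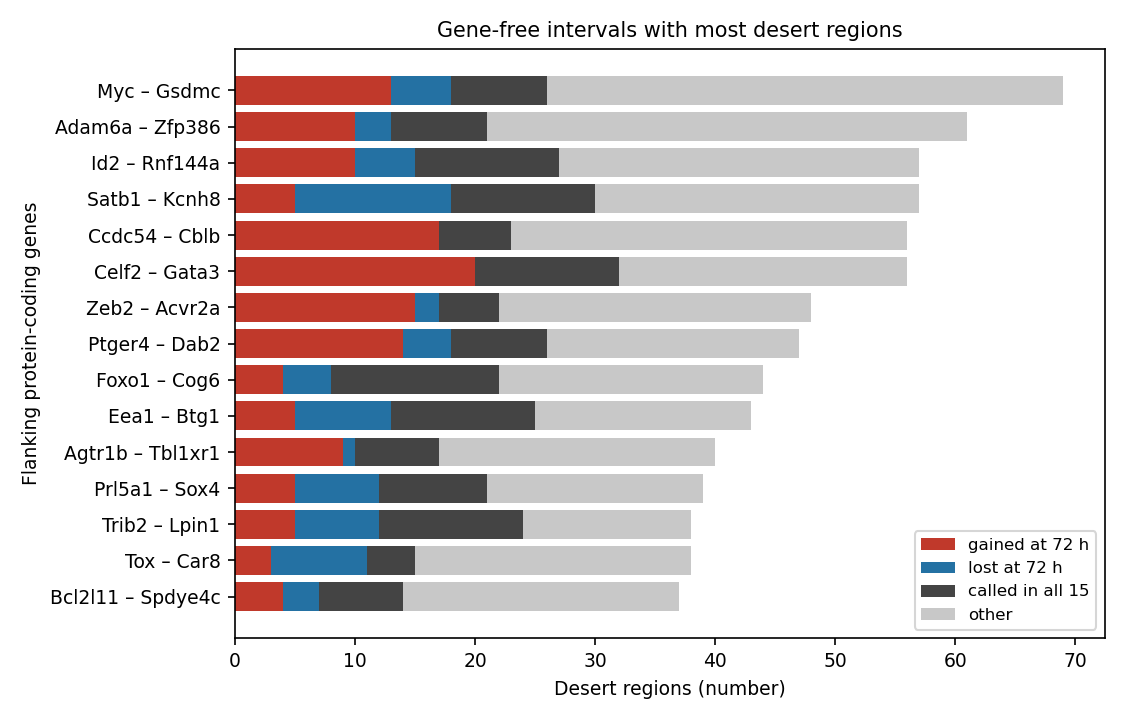
The 15 deserts with the most regions, named by their flanking protein-coding genes, with bars split into regions gained at 72 h, lost at 72 h, called in all 15 libraries, and other. Gains range from 3 beside Tox to 20 beside Gata3, and the Cblb and Gata3 deserts hold no losses.

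**Figure D4:**
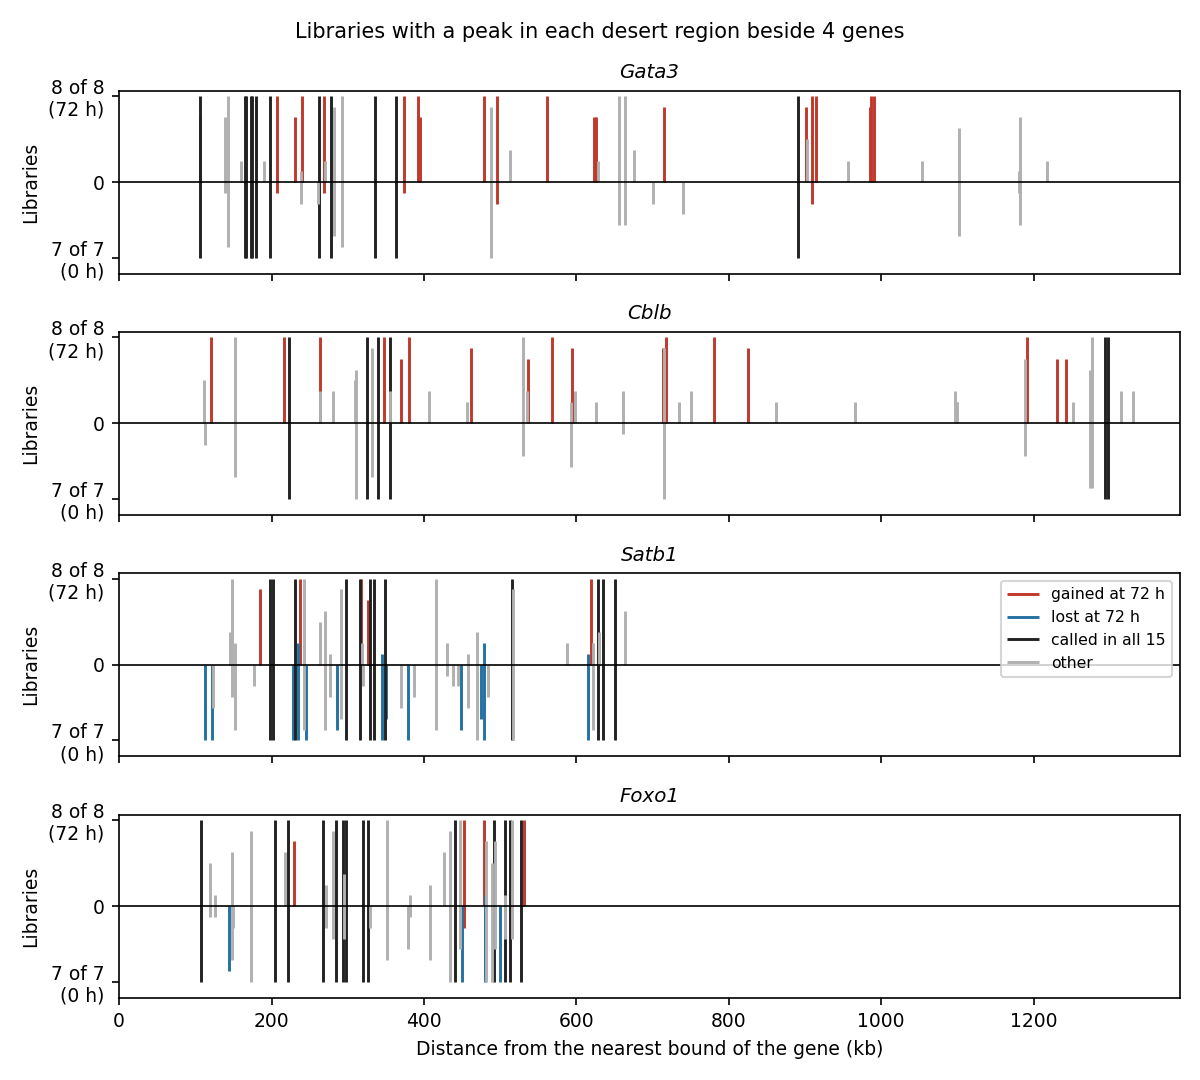
Number of libraries with a peak in each desert region by its distance in kb from Gata3, Cblb, Satb1 or Foxo1, upward for the 8 libraries at 72 h and downward for the 7 at 0 h, coloured by call. Gained regions extend to 991.2 kb from Gata3 and 1242 kb from Cblb, and lost regions lie 112.2 to 615.1 kb from Satb1.

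Desert regions were assigned to gene lists by the protein-coding genes that flank them; the lists were drawn up with earlier results of these data known. Genes of T cell identity and quiescence flanked 555 desert regions (20 of 40 genes), of which 115 were gained (20.7%) and 61 lost (11%). Genes of T cell activation and effector function flanked 456 (20 of 46 genes), with 117 gained (25.7%) and 29 lost (6.36%). Over all desert regions 26.4% were gained and 5.59% lost. The identity list had a lower share of gains and a higher share of losses, and the activation list was close to the whole. Genes within the identity list differed. Losses led beside Satb1 (6 gained, 15 lost) and Tox (3 gained, 8 lost), and gains beside Gata3 (20 gained, 0 lost) and Klf6 (27 gained, 1 lost). The parts of single genes and of cluster size in these shares were not tested. Developmental regulators, which mark deserts in many tissues, flanked 184 regions (29 of 35 genes), with 48 gained (26.1%) and 8 lost (4.35%).

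Only 2 of 37 cytokine and receptor genes flanked a desert, with 38 regions, 4 gained and 3 lost. Of these, Ifng, the signature cytokine of T helper 1 cells, was beside 20 regions, 1 gained and 2 lost, with 6, 9, 6 and 9 called in IRF5-/- cells and 10, 9, 10 and 8 in IRF5+/+ cells at 72 h, against 12, 6 and 11 in IRF5-/- cells and 11, 15, 12 and 14 in IRF5+/+ cells at 0 h. Tgfbr2 was beside the other 18, of which 3 were gained and 1 lost. Markers of other cell types also flanked deserts that gained peaks. Beside 5 B lineage genes 13 of 35 regions were gained (37.1%, against 26.4% of all desert regions) and 0 lost. Beside 3 myeloid genes 5 of 10 were gained (50%) and 0 lost. The high share of the B lineage list rested on Bcl11a, beside which 9 of 18 regions were gained. Beside the rest, 2 of 7 were gained for Irf8, 1 of 6 for Bank1, 1 of 3 for Ebf1 and 0 of 1 for Cr2. Of the B cell markers given here, Ms4a1 had 0 regions and Cd79a and Pax5 had peaks in every library, and of the 4 myeloid markers Lyz2 had 0 regions, Csf1r a peak in 2 libraries, and Itgam and Spi1 peaks in every library. The part of other cell types in these gains was not tested.

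Among the interferon regulatory factor genes, Irf8 was the single 1 of 9 that flanked a desert. It was beside 7 regions, 2 of them gained (28.6%, near the 26.4% of all desert regions) and 0 lost. Peaks were called in 3, 3, 3 and 3 of these in IRF5-/- cells at 72 h and 4, 5, 5 and 2 in IRF5+/+ cells at 72 h, against 0, 0 and 0 in IRF5-/- cells and 1, 2, 1 and 0 in IRF5+/+ cells at 0 h. The genotypes overlapped at both times.

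By annotation, 3989 desert regions (73.6%) overlapped no annotated gene of any type, and 1266 (23.4%) overlapped 584 lncRNA genes, led by 2610307P16Rik with 32 regions, Morrbid with 24, Gm13481 with 22, Lncpint with 20 and Pvt1 with 19. Antigen receptor loci, whose gene segments are not annotated as protein-coding, held 108 desert regions. The immunoglobulin heavy chain locus had 64, of which 11 were gained, 3 lost and 8 constant, and the kappa locus had 8, of which 3 were gained. The T cell receptor alpha locus had 23, of which 1 was gained and 6 were lost, and the beta locus 12, of which 1 was gained and 3 were lost. The T cell receptor loci thus held 2 gains and 9 losses, whereas desert regions as a whole were gained more often than lost; how reads from repeated gene segments were placed was not given, so these counts are uncertain.

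Changes in height were tested where a peak was present in all 15 libraries, which left 601 desert regions of 21176 regions. The log2 scaled pileup was fitted with limma over the 4 groups, with Benjamini-Hochberg adjustment over all 21176. These members passed only because they had a peak in every library, so they do not stand for all desert regions. In IRF5-/- cells 97 (16.1%) were higher at 72 h, against 7.57% of all tested regions, and 211 (35.1%) were lower, against 39.7%. In IRF5+/+ cells 76 (12.6%) were higher, against 5.14% of all tested regions, and 320 (53.2%) were lower, against 65.2%.

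The preponderance of lower values came with a shift of the whole distribution. The median log2 change of all tested regions was -0.50 in IRF5-/- cells and -0.81 in IRF5+/+ cells, and of the desert regions -0.34 in IRF5-/- cells and -0.65 in IRF5+/+ cells. Without replicate 3 of the untreated IRF5-/- cells, 348 desert regions were lower in IRF5-/- cells. When each library was centred on its median, 260 desert regions (43.3%) were higher and 188 (31.3%) lower in IRF5-/- cells. Of all tested regions 29.3% were higher and 32.9% lower there. In IRF5+/+ cells 259 (43.1%) were higher and 207 (34.4%) lower, against 29.8% and 33.3% of all tested regions. On the centred scale 238 were higher in both genotypes, 173 lower in both, 0 opposite, 92 changed in 1 genotype and 98 in neither. The 2 genotypes' centred changes were within 0.5 log2 units of each other in 91% of the regions, and they ranged from -2.44 to 3.04 in IRF5-/- cells and from -3.06 to 3.16 in IRF5+/+ cells.

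**Figure D5:**
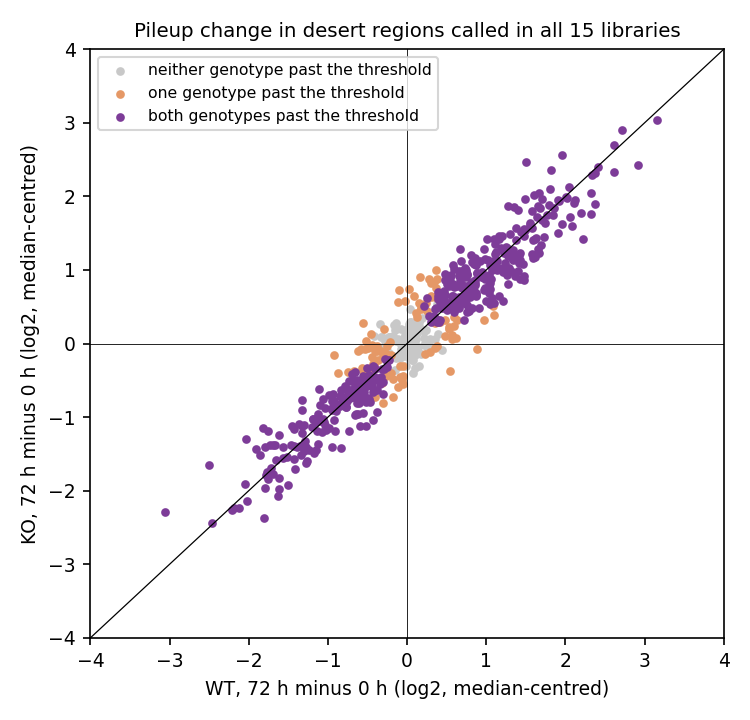
Median-centred log2 change in pileup from 0 h to 72 h for the 601 desert regions called in all 15 libraries, IRF5-/- cells on the vertical axis and IRF5+/+ cells on the horizontal axis. Values run from -2.44 to 3.04 in IRF5-/- cells and from -3.06 to 3.16 in IRF5+/+ cells, and 91% lie within 0.5 of the diagonal.

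The steepest rise was between Ado and Zfp365 on chromosome 10 (67717312 to 67718210). Its pileup was 3.56, 3.15, 3.37 and 3.84 at 72 h against 0.812, 0.421 and 0.584 at 0 h in IRF5-/- cells, and 3.77, 3.77, 4.67 and 3.42 against 0.714, 1, 0.566 and 0.752 in IRF5+/+ cells. The log2 change was 2.57 ± 0.30 (SE) in IRF5-/- cells (limma, adjusted p = 1.29e-15) and 2.39 ± 0.28 in IRF5+/+ cells (limma, adjusted p = 3.29e-16). Activated and untreated libraries did not overlap in either genotype. Without centring, the SE of all named rises and falls was 0.287 to 0.298 in IRF5-/- cells and 0.266 to 0.276 in IRF5+/+ cells. These SEs rest on a spread shared over all regions, including shifts of whole libraries. The p-values of the named rises and falls therefore do not measure the spread of each region by itself.

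In the Myc to Gsdmc desert, 744.5 kb beyond Myc, a region on chromosome 15 (62734820 to 62735882) had 2.23, 3.31, 2.82 and 3.13 at 72 h against 0.6, 0.383 and 0.633 at 0 h in IRF5-/- cells, and 3.24, 2.87, 3.64 and 3.07 against 0.803, 1.1, 0.728 and 0.752 in IRF5+/+ cells. Its log2 change was 2.43 ± 0.30 in IRF5-/- cells (limma, adjusted p = 4.24e-14) and 1.94 ± 0.28 in IRF5+/+ cells (limma, adjusted p = 4.72e-11). Each activated library exceeded every untreated one. A region 227.9 kb from Nfkbiz, which encodes an inducible nuclear partner of NF-kB, on chromosome 16 (55582537 to 55583439) rose by 2.24 ± 0.30 log2 units in IRF5-/- cells (limma, adjusted p = 4.12e-12) and 1.84 ± 0.28 in IRF5+/+ cells (limma, adjusted p = 4.49e-10). In the Gata3 desert, a region 278.5 kb from the gene (chromosome 2, 9577615 to 9578569) had 2.4, 2.34, 2.6 and 2.01 at 72 h against 0.6, 0.497 and 0.877 at 0 h in IRF5-/- cells, and 3.08, 3.45, 4.17 and 2.64 against 1.07, 0.897, 0.809 and 0.91 in IRF5+/+ cells. It changed by 1.87 ± 0.30 in IRF5-/- cells (limma, adjusted p = 1.09e-08) and 1.84 ± 0.28 in IRF5+/+ cells (limma, adjusted p = 4.13e-10). Regions near Marcks (chromosome 10, 37320004) and between Spring1 and Med13l (chromosome 5, 118404225) were also higher in both genotypes, by 1.18 to 2.14 log2 units.

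Falls in height were found beside Tnfaip3 and Tgfbr2 too. A region 101.3 kb from Tnfaip3 (chromosome 10, 19116721 to 19117557) had 1.34, 1.86, 1.54 and 1.4 at 72 h against 13.9, 6.66 and 16 at 0 h in IRF5-/- cells, and 1.66, 1.6, 2.22 and 1.52 against 13.8, 15.1, 17.2 and 19.6 in IRF5+/+ cells. Its log2 change was -2.91 ± 0.29 in IRF5-/- cells (limma, adjusted p = 3.47e-21) and -3.24 ± 0.27 in IRF5+/+ cells (limma, adjusted p = 3.94e-31). The desert beside Tnfaip3 thus held 3 named regions that fell or disappeared on activation. A region 162.3 kb from Tgfbr2 in the lncRNA gene D730003K21Rik (chromosome 9, 116337651 to 116338934) changed by -2.73 ± 0.29 in IRF5-/- cells (limma, adjusted p = 7.34e-18) and -2.99 ± 0.27 in IRF5+/+ cells (limma, adjusted p = 2.4e-25).

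Beside Bcl2l11, a region 132 kb from the gene (chromosome 2, 128294572 to 128295608) had 1.16, 1.21, 1.2 and 1.5 at 72 h against 10.1, 4.71 and 11.5 at 0 h in IRF5-/- cells, and 1.09, 2.1, 1.57 and 1.01 against 9.82, 10.5, 11 and 11.8 in IRF5+/+ cells. It changed by -2.70 ± 0.29 in IRF5-/- cells (limma, adjusted p = 8.63e-18) and -2.96 ± 0.27 in IRF5+/+ cells (limma, adjusted p = 2.4e-25). A region 112.6 kb from Cxcr4 (chromosome 1, 128704851 to 128705921) had 0.623, 1.33, 1.24 and 1.08 at 72 h against 5.65, 2.83 and 5.46 at 0 h in IRF5-/- cells, and 0.811, 0.617, 0.995 and 0.583 against 6.74, 6.03, 7.77 and 8.04 in IRF5+/+ cells. It changed by -2.11 ± 0.30 in IRF5-/- cells (limma, adjusted p = 7.46e-11) and -3.27 ± 0.28 in IRF5+/+ cells (limma, adjusted p = 1.54e-29). The region between Trib2 and Lpin1 (chromosome 12, 16133202) changed by -2.84 ± 0.29 in IRF5-/- cells and -2.58 ± 0.27 in IRF5+/+ cells. The region between Amd2 and Hs3st5 (chromosome 10, 36157843) changed by -2.76 ± 0.29 in IRF5-/- cells and -3.84 ± 0.27 in IRF5+/+ cells. All of these falls exceeded the spread between libraries, with no overlap between 72 h and 0 h in either genotype, and each named rise and fall also passed, in the same direction, after centring.

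The tallest desert regions lay on chromosomes 17, 2 and 3. A pair on chromosome 17 (39843165 to 39846861 and 39847488 to 39848870) overlapped Rn18s-rs5, annotated as a pseudogene, and reached 39.1 to 61.3 at 72 h and 24.8 to 57.3 at 0 h. Pileups of 16.7 to 27.4 were found at chromosome 2 (98666837 to 98667312), between Lrrc4c and Iftap. None of these 3 passed the test for activation in either genotype on the scaled pileup (limma, adjusted p of 0.125 or more), and all 3 were higher at 72 h in both after centring (limma, adjusted p of 0.00113 or less). No list of artefact-prone regions was applied to the peaks here, and the placement of reads from repeated sequence is not described, which leaves the height of these regions uncertain.

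To ask whether the loss of IRF5 changed which desert regions had peaks, the genotypes were compared by the exact test stratified by time. By this exact test with Benjamini-Hochberg adjustment, 0 desert regions and 0% of all regions passed in either direction, and an unstratified Fisher's exact test also gave 0. At an unadjusted p under 0.05, 3 desert regions had more IRF5-/- libraries (0.0554%, against 0.037% of all regions). Fewer IRF5-/- libraries were found for 57 (1.05%, against 1.36% of all regions). The design limited this test, because the smallest possible p was 0.000408. Before any region could pass, at least 684 were needed at that p, or more at larger p. By simple counts at 72 h, 2 desert regions had a peak in all 4 IRF5-/- and no IRF5+/+ library (0.0369%, against 0.0299% of all regions). The reverse pattern was seen in 27 (0.498%, against 0.462% of all regions). At 0 h, 1 had a peak in all 3 IRF5-/- and no IRF5+/+ library (0.0185%, against 0.00478% of all regions). The reverse was seen in 17 (0.314%, against 0.39% of all regions). IRF5-/- libraries had fewer peaks on average at both times, as given above, and the part of this in the counts was not tested.

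The desert regions with the smallest unadjusted p were of low pileup. In the Igh locus, a region on chromosome 12 (115663851 to 115664335) had 1 peak of 0.982 in IRF5-/- cells and 4 of 0.661 to 0.892 in IRF5+/+ cells at 72 h, against none in IRF5-/- cells and 4 of 1 to 1.25 in IRF5+/+ cells at 0 h (exact test, p = 0.00204, adjusted p = 1). In the Celf2 to Gata3 desert, a region on chromosome 2 (8673937 to 8674421) had peaks in 2 of 7 IRF5-/- libraries and 8 of 8 IRF5+/+ libraries, and in the Lncpint desert a region on chromosome 6 (31233155 to 31233986) also had peaks in 2 of 7 and 8 of 8 (exact test, p = 0.00612 for each, adjusted p = 1). The 3 regions with more IRF5-/- libraries, on chromosomes 8 (26835633 to 26836000), 2 (17870501 to 17870803) and 16 (3265431 to 3265801), had pileups of 0.353 to 0.801 in 3 or 4 IRF5-/- libraries and no peak in any IRF5+/+ library. None of these differences held after adjustment.

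Scaled pileup in the 601 regions gave the same count without centring: by limma 0 desert regions were higher or lower in IRF5-/- than in IRF5+/+ cells at either time, and 0 differed between the genotypes in their activation change (0% of all tested regions in each). At an unadjusted p under 0.05, 208 of them passed at 0 h, 42 at 72 h and 35 in the interaction. The median log2 difference between IRF5-/- and IRF5+/+ cells over all tested regions was -0.52 at 0 h and -0.22 at 72 h, and over the desert regions it was -0.50 at 0 h and -0.19 at 72 h. At 0 h the difference was above 0 in 0.832% of the desert regions and 0.217% of all tested regions. At 72 h it was above 0 in 21.5% of the desert regions and 9.38% of all tested regions. The lower values in IRF5-/- cells were thus shared by all tested regions. The result rested on single libraries: 428 desert regions were lower in IRF5-/- cells at 0 h when untreated IRF5-/- replicate 4 was left out, and 3 were higher and 43 lower at 72 h when untreated IRF5-/- replicate 3 was left out. For these counts and those at an unadjusted p, the share over all tested regions is not given here. They are therefore not results about deserts in particular.

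After median-centring, a few desert regions differed at 72 h. In IRF5-/- cells 8 were higher (1.33%, against 0.94% of all tested regions) and 1 was lower (0.166%, against 0.264%). At 0 h 2 were higher (0.333%, against 0.0331% of all tested regions) and 0 lower. These regions are named after their values were seen. Between Amd2 and Hs3st5 (chromosome 10, 36157843 to 36158972), the pileup was 1.07, 2.1, 1.37 and 1.17 in IRF5-/- cells and 0.932, 0.689, 1.19 and 0.505 in IRF5+/+ cells at 72 h, a centred log2 difference of 1.04 ± 0.15 (limma, adjusted p = 8.98e-05). Its uncentred values overlapped between the genotypes, and its uncentred difference of 0.80 ± 0.27 did not pass (limma, adjusted p = 0.812). Between Gm5148 and Ankrd50 (chromosome 3, 38280066 to 38280761), it was 2.49, 3.63, 2.77 and 3.27 in IRF5-/- cells and 2.43, 1.45, 2.49 and 1.83 in IRF5+/+ cells at 72 h (centred log2 difference 0.82 ± 0.12; limma, adjusted p = 0.000102). The others that were higher at 72 h lay beside Sox2 (chromosome 3, 35317663 and 35305558), St3gal1 (chromosome 15, 67289487), Cxcr4 (chromosome 1, 128704851), Zeb2 (chromosome 2, 48321992) and Dusp6 (chromosome 10, 99580395), with centred log2 differences of 0.44 to 1.06.

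The 1 region that was lower lay 182.4 kb from Ets1, a transcription factor of lymphocyte development (chromosome 9, 32940237 to 32941900). It had 1.87, 1.86, 2.09 and 1.92 in IRF5-/- cells and 3.73, 3.85, 3.98 and 2.68 in IRF5+/+ cells at 72 h, so that the genotypes did not overlap (centred log2 difference -0.63 ± 0.12; limma, adjusted p = 0.00404). At 0 h it had 3.32, 1.42 and 3.46 in IRF5-/- cells and 3.03, 3.66, 5.02 and 4.31 in IRF5+/+ cells, which overlapped. The 2 regions that were higher at 0 h were among the 5 tallest desert regions. No list of artefact-prone regions was applied to them either, so their height and these differences are uncertain. Between Lrrc4c and Iftap (chromosome 2, 98662247 to 98662892) the pileup was 17.6, 17.4 and 16.7 in IRF5-/- cells and 15.9, 15.2, 15.4 and 15.5 in IRF5+/+ cells (centred log2 difference 0.70 ± 0.14; limma, adjusted p = 0.0471), and between Pex2 and 1700008P02Rik (chromosome 3, 5860346 to 5860821) the genotypes overlapped (0.60 ± 0.12; limma, adjusted p = 0.0348). When single libraries were left out, the counts at 72 h lay between 4 and 29 higher and between 1 and 7 lower. There were 29 higher and 7 lower without activated IRF5-/- replicate 1, 16 higher without activated IRF5+/+ replicate 3, 13 higher without activated IRF5+/+ replicate 1, and 4 higher without activated IRF5-/- replicate 2 or 4 or IRF5+/+ replicate 2. At 0 h, 0 or 1 region was higher when any of 8 libraries was left out. For the change with activation, the interaction on the centred scale gave 0 desert regions, against 0.00472% of all tested regions lower and 0% higher. At an unadjusted p under 0.05, 73 desert regions passed in this interaction, and the share over all tested regions is not given here.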

How the data were processed

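ATAC-seq was measured in 15 libraries of mouse CD4+ T cells. The submitters' processing notes name Trim Galore 0.5.0, Bowtie2 2.2.9, HOMER 4.10.4 and the mm10 build. Peaks were called in each library with MACS2 2.1.1.20160309 on read pairs, without a control, keeping 1 fragment per position, at a q cutoff of 0.05, per the file headers. No adjustment of positions for the transposase offset was given in the sources used here. Each deposited peak list gives the pileup (a signal of fragments at the summit), a fold enrichment ratio over local background, and -log10 p-values and q-values, all by the authors. The headers name a scaling of the signal, but the deposited pileup values were whole numbers that grew with depth. The authors' merged-replicate lists use the same units, and their final lists also hold a score; these were only overlapped with the desert regions.

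Per-library lists were merged at an overlap of 1 bp, regions found in at least 2 libraries were kept, and distances were taken from protein-coding gene bounds in RefSeq (GRCm38.p6). Pileup was scaled to 1000000 fragments after filtering (20531236 to 29000534 per library, per the file headers). Presence was compared by a two-sided exact stratified hypergeometric test, and log2 pileup by limma 3.58.1 in R 4.3.3 with a variance trend, each with Benjamini-Hochberg adjustment over all regions tested and a threshold of 0.05. Python 3.11.15, numpy 2.4.6, pandas 2.3.3 and matplotlib 3.10.9 were used for the rest. Both tests were run on simulated data with planted changes. Apart from these changes, the simulation of presence gave every library the same rate of peaks. It therefore cannot show how the exact test behaves when libraries differ in peak number. Named regions are up to 6 per direction past the threshold with the highest median pileup for presence, up to 4 per contrast and direction with the lowest adjusted p for pileup, the 5 tallest called in every library, and the largest clusters and deserts; of these a part is described. Further deserts, the Klf6 sum among them, and the centred genotype regions were chosen after their values were seen. The members and gene lists were chosen with earlier results of these data known. Sequence windows around peak summits and motifs in them were not analysed here. Alternatives covered peak strength, peak number, library number, distance, gene type, gap, scaling, pairing by replicate number and leaving out each library. One marker gene is not reported here.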

Additional observations from a re-analysis of the deposited data

Results flagged for a closer look

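In 6 of 130 groups of 4 libraries, 1 library of a named desert region stood far from the other 3 by Dixon's test at the 95% level; chance alone gives such a gap in about 1 in 20 groups. Between Dusp10 and Hlx (chromosome 1, 184533996), activated IRF5+/+ replicate 4 had a scaled pileup of 4.7, against 5.48 to 5.63 in the other replicates. Between Marcks and Rfpl4b (chromosome 10, 37320004), activated IRF5-/- replicate 3 had 4.87, against 4.05 to 4.16 in the other replicates. Beside Bcl2l11 (chromosome 2, 128294572), activated IRF5-/- replicate 4 had 1.5, against 1.16 to 1.21. Beside Sox2 (chromosome 3, 35305558), activated IRF5-/- replicate 1 had 1.29, against 1.96 to 2.02. Between Dyrk2 and Cand1 (chromosome 10, 119030427), activated IRF5-/- replicate 4 had 0.561, against 0.811 to 0.848. On the A1bg side of Myc (chromosome 15, 61407979), activated IRF5-/- replicate 1 had 0.979, against 0.686 to 0.726.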

How the results depend on the processing

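Desert regions gained at 72 h numbered 1429 and lost ones 303. Gains numbered 589 with equal peak numbers per library and 800 when peaks had to cover at least 0.5 of a region. Beyond 200 kb of protein-coding genes there were 2412 desert regions in 213 clusters, with 675 gained and 124 lost, since fewer regions qualified; beyond 100 kb of genes of any type 205 were gained and 30 lost. At 200 kb, limma gave 34 higher and 76 lower in IRF5-/- cells and 31 higher and 107 lower in IRF5+/+ cells. Median-centring gave 260 higher in IRF5-/- cells, 259 higher and 207 lower in IRF5+/+ cells, and for IRF5-/- against IRF5+/+ cells 2 higher at 0 h, 8 higher and 1 lower at 72 h. With the deposited fold enrichment, 193 were lower in IRF5+/+ cells; the cause was not tested. A stricter q, other library minimums, autosomes only and Fisher's exact test left gains at 1136 to 1511 and losses at 249 to 322.

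With single libraries left out, gains ran from 1155 to 1359 and losses from 222 to 295. By limma, higher and lower counts with activation ran from 75 to 122 and from 159 to 348 in IRF5-/- cells, and from 58 to 103 and from 275 to 359 in IRF5+/+ cells. The count lower in IRF5-/- than in IRF5+/+ cells ran from 0 to 428 at 0 h and from 0 to 43 at 72 h, and the higher count at 72 h from 0 to 3. Of 690 values of named regions with a library left out, 658 kept their direction and side of the threshold, 26 no longer passed, 6 newly passed and 0 reversed.

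A pairing of libraries by replicate number was not seen: deviations of 21 same-numbered pairs correlated from -0.17 to 0.23, with 1 above 0.1. Weak correlations within such small groups cannot exclude a pairing. With the replicate block, 0 gains and 0 losses passed, since 7 pairs allow no exact p below 0.0156. With the block in limma, 75 were higher and 200 lower in IRF5-/- cells, and 67 higher and 306 lower in IRF5+/+ cells. Depth limits the weak peaks: a region without a listed peak was not shown to be closed, and desert peaks were low.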

Other observations

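The authors' final peak lists, 1 per group and not used in the tests, overlapped 2699 desert regions in IRF5-/- cells at 72 h (49.8%), 3066 in IRF5+/+ cells at 72 h (56.6%), 1501 in IRF5-/- cells at 0 h (27.7%) and 1635 in IRF5+/+ cells at 0 h (30.2%). Of all regions they overlapped 58.3% in IRF5-/- cells at 72 h, 66.6% in IRF5+/+ cells at 72 h, 44% in IRF5-/- cells at 0 h and 48.4% in IRF5+/+ cells at 0 h. How these lists were chosen from the merged ones was not given in the sources used here.

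Deserts beside developmental regulators differed among themselves. Beside Sall3, a spalt-type zinc finger factor, 6 of 32 regions were lost and 3 gained, with 11, 15, 18 and 12 called in IRF5-/- cells and 19, 17, 17 and 12 in IRF5+/+ cells at 72 h, against 14, 11 and 17 in IRF5-/- cells and 17, 22, 18 and 18 in IRF5+/+ cells at 0 h. Beside Lmo4, a LIM-domain adaptor, 8 of 19 were gained and 0 lost, with 11, 11, 12 and 12 called in IRF5-/- cells and 14, 15, 15 and 11 in IRF5+/+ cells at 72 h, against 3, 1 and 3 in IRF5-/- cells and 1, 5, 2 and 4 in IRF5+/+ cells at 0 h. The activated and untreated libraries overlapped beside Sall3 and did not overlap beside Lmo4. Beside Sox5, 6 of 17 were gained and 0 lost.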
